A study of Mus musculus with 3 samples.

Results

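Oligodendrocyte sub-cluster 2 held 576 of the 2165 nuclei that the authors annotated as oligodendrocytes, out of 14662 nuclei in all, in single-nucleus RNA sequencing of the mouse lumbar spinal cord. Its members were the nuclei to which the deposited table of nuclei gave both the type oligodendrocyte and the sub-cluster number 2. The other oligodendrocyte nuclei fell into sub-cluster 0 with 711, sub-cluster 1 with 693, sub-cluster 3 with 132 and sub-cluster 4 with 53. The study compared SOD1G93A mice (B6.Cg-Tg(SOD1*G93A)1Gur/J, a high-copy transgenic line for the mutant human SOD1 gene and a model of amyotrophic lateral sclerosis) with wild-type (WT) C57BL/6J littermates, all 90 days old. There were 12 mice, 3 of each sex and genotype. Nuclei were tagged by mouse with hashing antibodies and run in 3 pools, A, B and C, each with 1 mouse of every sex and genotype. Mice whose transgene copy number had changed were not enrolled.

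Oligodendrocytes wrap axons in myelin, a stack of membrane rich in cholesterol, galactolipids and a few proteins such as myelin basic protein (Mbp) and myelin-associated oligodendrocyte basic protein (Mobp). They arise from precursor cells (OPCs) and pass through newly formed and myelin-forming stages before they mature. Mature oligodendrocytes also pass metabolites to axons and buffer potassium, and mature cells of the brain and spinal cord differ in genes such as Ptgds, Grm3, Il33, Klk6 and Apod.

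The label was first set against marker genes. At least 1 UMI (a counted RNA molecule) of Mbp was found in 570 of the 576 nuclei, or 99.0% (Wilson interval 97.7 to 99.5%), and of Mobp in 550, or 95.5% (93.5 to 96.9%). In endothelial nuclei, which do not make myelin, a UMI of Mbp was found in 57.5% and of Mobp in 24.8% of nuclei, at a median of 6963 UMIs per nucleus against 5075.5 in sub-cluster 2. Astrocytes, at a median of 5338 UMIs, had a UMI of Mbp in 74.6% and of Mobp in 43.5% of nuclei. After thinning to 1500 UMIs per nucleus, Mobp was present in 74.4% of sub-cluster 2 nuclei, 19.9% of astrocytes and 6.91% of endothelial nuclei. Over all mice the level of Mbp was 2228 CPM (the counts-per-million scale, on all UMIs of the sum) in sub-cluster 2, below the 3216 of sub-cluster 0 and the 3717 of sub-cluster 1. For Mobp the levels were 1001, 1452 and 1298 CPM in the same order.

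Sub-cluster 2 was made of unlike nuclei. In the authors' clustering of all nuclei, 432 of its members (75%) lay in cluster 7, 78 in cluster 15, 26 in cluster 6 and 20 in cluster 5, and the remaining 20 were scattered. The authors' mapping to a reference of the spinal cord called 424 of the 432 cluster 7 nuclei oligodendrocytes (98.1%), but only 48 of the 144 others (33.3%), and it placed 100 sub-cluster 2 nuclei among neurons or a neuron subtype, 7 of them in cluster 7. A UMI of Grin1, Rbfox3 or Camk2a, which mark neurons, was present in 257 sub-cluster 2 nuclei, or 44.6%, against 19.5% in sub-cluster 0, 23.2% in sub-cluster 1, 41.7% in sub-cluster 3, 35.8% in sub-cluster 4, 32.8% in astrocytes and 25.3% in endothelial nuclei. After each nucleus was thinned to 1500 UMIs (32 shallower sub-cluster 2 nuclei left out), the share was 21.7% in sub-cluster 2, 14.9% in its cluster 7 nuclei, 51.7% in its other nuclei, 8.15% in sub-cluster 0, 5.77% in sub-cluster 1, 12.1% in sub-cluster 3, 15.1% in sub-cluster 4, 13.8% in astrocytes, 6.10% in endothelial nuclei and 69.6% in neurons. The share in the cluster 7 nuclei (Wilson interval 11.8 to 18.6%) was above that in sub-clusters 0 and 1 and in endothelial nuclei. It was close to that in sub-clusters 3 and 4 and in astrocytes. The share in the nuclei outside cluster 7 (42.8 to 60.4%) was above all of these. The intervals pool the nuclei of all mice and cover counting error only. Before thinning, the share in sub-cluster 2 ran from 30.8 to 77.8% over the mice.

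**Figure D1:**
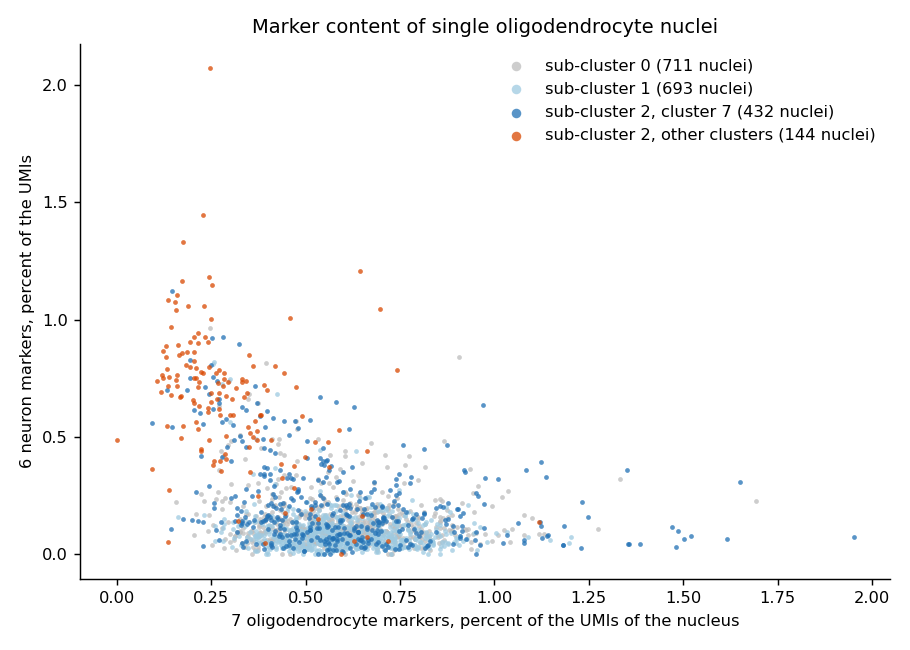
Each point is 1 nucleus of sub-cluster 0, sub-cluster 1 or sub-cluster 2, the last split by the authors' cluster 7. The x axis gives 7 oligodendrocyte markers and the y axis 6 neuron markers, both as a percent of the UMIs of the nucleus. The nuclei outside cluster 7 sit at a median of 0.688% neuron and 0.255% oligodendrocyte marker UMIs, the cluster 7 nuclei at 0.150% and 0.564%.

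The summed level of 6 neuron markers (Grin1, Rbfox3, Camk2a, Snap25, Syt1 and Meg3, none of them at 0) was 4732 CPM in sub-cluster 2, against 1456 in sub-cluster 0, 985 in sub-cluster 1, 2964 in sub-cluster 3, 3262 in sub-cluster 4 and 11902 in neurons. OPC nuclei were at 5537 CPM, above sub-cluster 2 as a whole. At a median of 10016 UMIs, 64.1% of them had a UMI of Grin1, Rbfox3 or Camk2a. Within sub-cluster 2 the summed level was 3248 CPM in the cluster 7 nuclei, close to sub-clusters 3 and 4, and 7549 CPM in the others. The sum of 7 oligodendrocyte markers ran the other way, at 5147 CPM in the cluster 7 nuclei, 2279 in the others, 5878 in sub-cluster 0 and 263 in neurons. The nuclei outside cluster 7 were 25% of the nuclei but held 34.5% of the UMIs, from 2.18% in male SOD1G93A A to 76.1% in female SOD1G93A B and 87.4% in female SOD1G93A C. For this reason the values below are also given for the cluster 7 nuclei alone, a choice made after the data were seen. Of the sub-cluster 2 nuclei, 72 (12.5%) were above the 95th percentile of UMIs of the oligodendrocytes of their pool, against 0.141% in sub-cluster 0, 1.30% in sub-cluster 1, 16.7% in sub-cluster 3 and 11.3% in sub-cluster 4. Pairs of nuclei from 1 mouse in 1 droplet were not marked in the deposited table, and their part in these values was not tested. No barcode of a sub-cluster 2 nucleus was shared between pools.

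Genes of precursors and of newly formed cells were far lower in sub-cluster 2 than in sub-cluster 4. The summed level of 11 newly formed stage genes was 10650 CPM in sub-cluster 4 and 1167 CPM in sub-cluster 2. It was 1393 CPM in sub-cluster 0, 1461 in sub-cluster 1 and 1377 in the cluster 7 nuclei. Log2 ratios within each mouse (1 CPM added) were also taken for the 9 measured at 10 CPM or more. Their median was 0.35 to sub-cluster 0 and 0.20 to sub-cluster 1. To all other oligodendrocyte nuclei, which include sub-cluster 4, it was -1.02. Tcf7l2, a transcription factor of newly formed oligodendrocytes, was at 63.1 CPM in sub-cluster 2 and 2136 CPM in sub-cluster 4. Enpp6, an early marker of newly forming cells, was at 129 CPM in sub-cluster 2, below the 441 and 513 CPM of sub-clusters 0 and 1. Precursor genes summed to 748 CPM in sub-cluster 2 and 8369 in sub-cluster 4, and the 748 CPM lay above sub-clusters 0 and 1 (279 and 294 CPM). Of it, Lhfpl3 gave 391 CPM and the precursor receptor Pdgfra 3.29 CPM, and neurons held Lhfpl3 at 1027 CPM. The sum of 5 OPC markers, without Lhfpl3, was also higher, at 284 CPM against 121 and 132 CPM in sub-clusters 0 and 1. Neurons held these markers at 543 CPM. In the cluster 7 nuclei the precursor genes summed to 633 CPM and the OPC markers to 249 CPM. The part of neuron RNA in these sums was not tested.

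The next comparison was made within each mouse, as the log2 ratio of sub-cluster 2 to all other oligodendrocyte nuclei (1 CPM added), in the 11 mice with at least 10 nuclei on both sides, which left out female SOD1G93A C with 9. These ratios are a description with no test, because the sub-clusters were drawn from the same genes. The other oligodendrocyte nuclei included sub-cluster 3, with 2042649 of their 11675180 UMIs. Of its 132 nuclei, the authors' automatic labels (SingleR) called 128 astrocytes (97.0%), and their reference mapping 94 (71.2%). Of 7 myelin-forming genes measured at 10 CPM or more, 3 were higher in all 11 mice and 1 was lower, with a median log2 ratio of 1.12. Among all 8983 genes at that level, 7.54% were higher and 8.24% lower in every mouse, with a median of -0.02. Opalin, a membrane protein of myelin, was at 83.5 CPM in the lowest of these mice, 152 in the median and 295 in the highest, against 8.86, 25.9 and 47.3 CPM in the other oligodendrocytes, so the ranges did not overlap. Its median log2 ratio was 2.22, and 3.21 in the cluster 7 nuclei. Tspan2, a tetraspanin, had a median ratio of 1.12 and Serinc5 of 1.41. Ugt8a, which makes the galactolipid of myelin, was the lower one, at -0.62. In the cluster 7 nuclei 4 of the 7 genes were higher and 0 lower in every mouse, with a median of 1.31. Of all 8983 genes, 3.18% were higher and 5.84% lower there. Summed over all mice, the myelin-forming genes were at 1333 CPM in sub-cluster 2 and 1711 CPM in its cluster 7 nuclei. They were at 1238 CPM in sub-cluster 0, 1107 in sub-cluster 1, 813 in sub-cluster 3 and 1288 in sub-cluster 4. The sum in sub-cluster 2 was thus close to that in sub-cluster 4.

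The 14 mature stage genes measured were split, with 4 higher and 6 lower in every mouse. Il33, an alarmin that oligodendrocytes keep in the nucleus, was at 141 CPM in the lowest of the 11 mice, 279 in the median and 341 in the highest, against 11.05, 32.5 and 84.5 CPM in the other oligodendrocytes, without overlap. In female SOD1G93A C, which the ratios left out, Il33 was at 46.0 CPM. Ptgds, which makes prostaglandin D2, had a median log2 ratio of 1.95, the glutamate receptor Grm3 one of 1.10, and Qdpr, which recycles tetrahydrobiopterin, one of 1.19. The protease Klk6 was lower at -2.01, the lipid carrier Apod at -1.47, Hopx at -1.38, S100b at -1.25, Anxa5 at -1.21 and the selenium carrier Selenop at -1.17. In the cluster 7 nuclei Il33 reached 3.38 and Ptgds 2.36, while Klk6 stood at -1.90 and Apod at -1.34. In these nuclei 5 of the 14 were higher and 6 lower in every mouse, against 3.18% and 5.84% of all 8983 genes, so the mature genes lay on both sides there as well. Grm3 was not particular to sub-cluster 2. Its median over WT mice was 1011 CPM there, 746 in sub-cluster 0 and 119 in sub-cluster 1. In SOD1G93A mice the medians were 941, 895 and 104 CPM in the same order. The ranges of sub-clusters 2 and 0 overlapped in both genotypes.

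**Figure D2:**
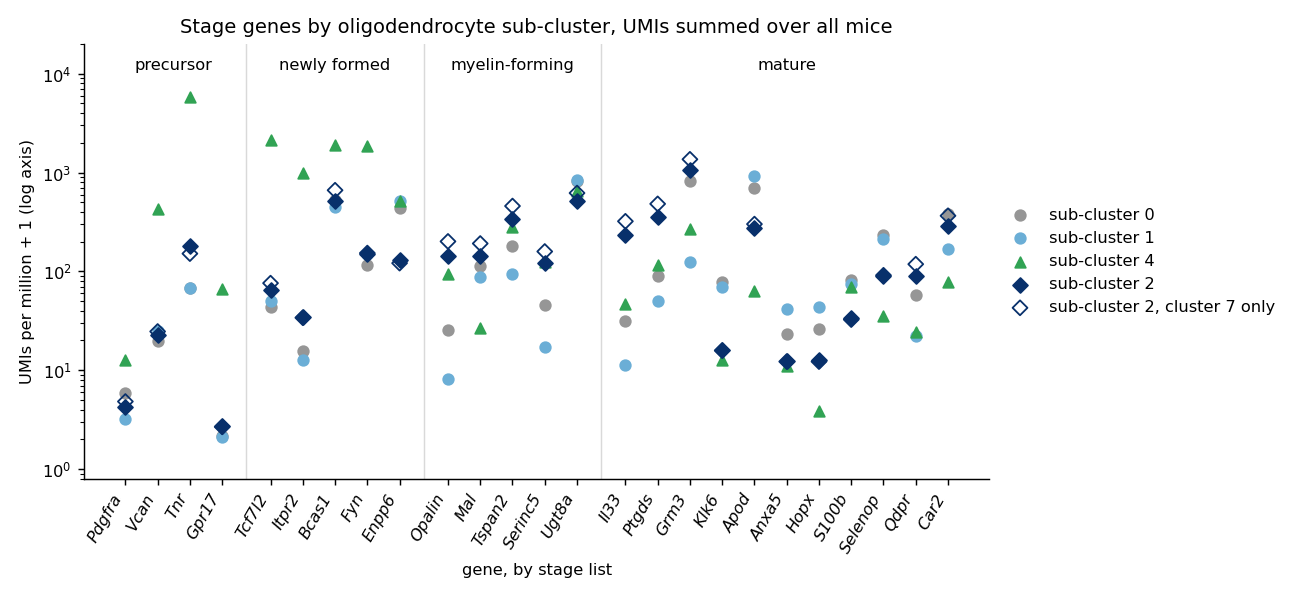
The y axis gives CPM plus 1 on a log axis, from UMIs summed over all mice, for named members of 4 stage lists on the x axis, in sub-clusters 0, 1, 2 and 4. Filled diamonds are all sub-cluster 2 nuclei and open diamonds its cluster 7 nuclei, which lie above sub-clusters 0 and 1 for Opalin, Il33 and Ptgds and below them for Enpp6, Klk6 and Apod.

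Across all genes, 488 of the 3739 with at least 50 CPM (13.1%) were higher in every mouse and 571 (15.3%) lower. Neurons exceeded sub-cluster 2 in 390 of the 488. The share of all 3739 genes for which they did so is not given here. This count and those for the lists below therefore describe the named genes only. The 15 genes with the largest median ratio were C030029H02Rik (3.15), Gm15398, Il33, Cntnap5c, Palm2, Pcsk5, Gm20642, Stac, Gm26883, Gm26905, Arhgap6, Spock1, 5730522E02Rik, Fbn2 and Ebf1 (2.25). For 10 of these 15 the level in neurons was above that in sub-cluster 2, among them the transcription factor Ebf1, at 1455 CPM in neurons, 1090 CPM in the nuclei outside cluster 7 and 517 CPM in cluster 7. The 5 that neurons did not exceed were C030029H02Rik, Il33, Palm2, Spock1 and Fbn2. The long noncoding RNA C030029H02Rik was at 104 CPM in the lowest, 145 in the median and 251 in the highest of the 11 mice against 6.81, 22.7 and 41.5 CPM in the other oligodendrocytes. Spock1, a secreted proteoglycan, was at 679, 1032 and 1393 CPM against 133, 214 and 612 CPM, again with no overlap. These genes and Il33 were picked for large ratios in the same direction in every mouse, which favours ranges that do not overlap. The share of all genes without overlap is not given here, so the separation, also that of Opalin, adds nothing to the ratios. In the cluster 7 nuclei, 4 of the 15 were higher in every mouse.

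The 15 genes with the smallest ratio were Hmcn1 (-3.35), Gm20631, Lmo7, Scel, Bace2, Art3, Gm32122, Ror1, 6030407O03Rik, Piezo2, Slc9b2, Gm7967, Gm13403, Mob3b and Slc5a11 (-2.07). Each was higher in sub-cluster 1 than in sub-cluster 0, and the share of all genes for which that held is not given here. Hmcn1, an extracellular matrix protein, was at 823 CPM in sub-cluster 1, 31.3 CPM in sub-cluster 0 and 65.9 CPM in sub-cluster 2. Gm20631 lies antisense within Hmcn1 (chromosome 1, 150625266 to 150783499 inside 150562524 to 150993435, mm10), and how the counting used strand is not given in the sources used here. The mechanosensitive channel Piezo2 was at 15.1, 33.9 and 84.6 CPM against 141, 178 and 448 CPM, and the inositol transporter Slc5a11 at 17.5 CPM against 54.5 and 103 CPM in sub-clusters 0 and 1. In the cluster 7 nuclei 14 of the 15 were lower in every mouse.

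In the cluster 7 nuclei alone, 242 of 3662 genes (6.61%) were higher and 404 (11%) lower in every mouse. The 15 highest by the same rule, named after their values were seen, began with Il33, C030029H02Rik, Opalin, 5033421B08Rik, Palm2, Spock1, Ptgds and Synpr. Neurons exceeded the cluster 7 nuclei for 1 of the 15, the glutamate receptor Grm7, at 3049 CPM against 2650 CPM. Shared with the lists above were 4 of the 15 higher and 11 of the 15 lower genes.

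**Figure D3:**
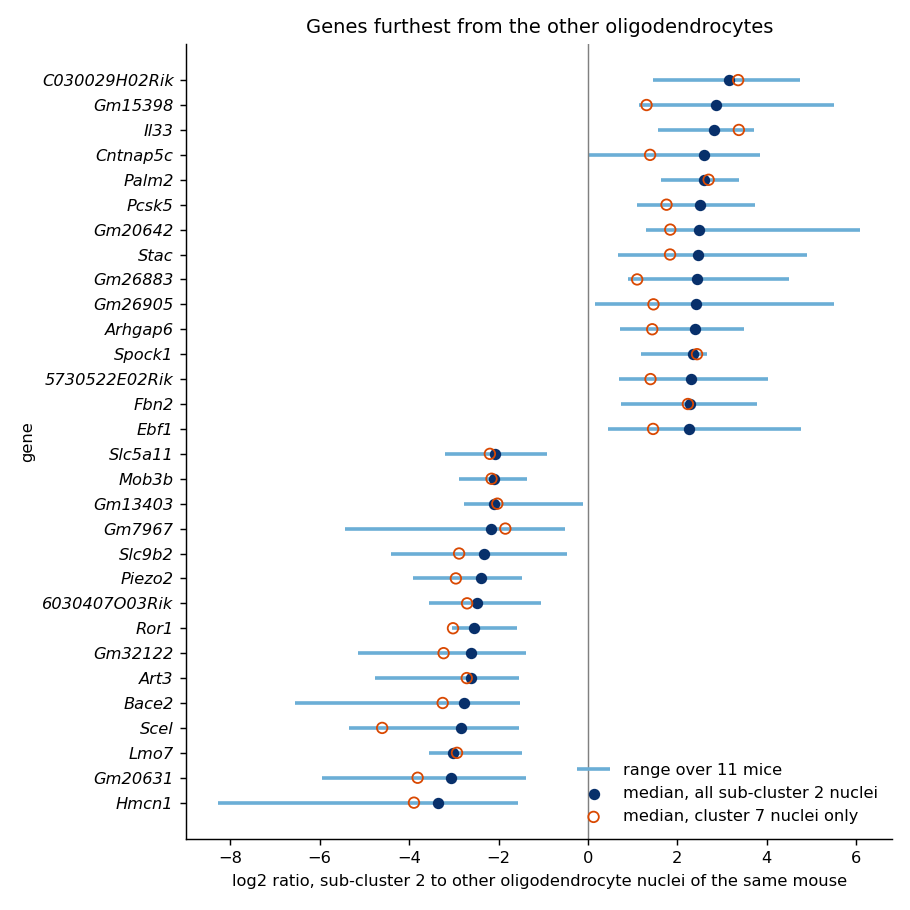
The x axis gives the log2 ratio of sub-cluster 2 to the other oligodendrocyte nuclei of the same mouse for the 30 genes on the y axis. Filled points are medians and lines the range over 11 mice, and open circles are medians of the cluster 7 nuclei, which move toward 0 for Gm15398, Gm26883 and Ebf1 and not for Il33 or C030029H02Rik.

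No gene measured for lipid synthesis was higher in every mouse, and some were lower. Of 12 genes of galactolipid and sphingolipid synthesis, 7 were lower and 0 higher in every mouse, with a median log2 ratio of -0.49, among them Elovl7 (-1.07), which lengthens fatty acids, and Gal3st1 (-1.02), which makes sulfatide. Summed over all mice, the 12 genes were at 2252 CPM in sub-cluster 2, below the 3502 and 3842 CPM of sub-clusters 0 and 1. They were not above that in sub-clusters 3 and 4, at 2002 and 1995 CPM, so the low sum was not particular to sub-cluster 2. Of 18 genes of cholesterol synthesis and export, 5 were lower and 0 higher, with a median of -0.45, and Hmgcs1, at the start of the pathway, stood at -1.05. Of all genes at that level 8.24% were lower in every mouse. In the cluster 7 nuclei 4 of 12 and 3 of 18 were lower, with medians of -0.29 and -0.47, against 5.84% of all genes. Genes of axon support went both ways, with 3 of 12 higher and 3 lower. Kcna1, a potassium channel, had a ratio of 1.39 and the channel regulator Pex5l of 0.80, while the potassium channel Kcnj10 stood at -0.56 and the glucose transporter Slc2a1 at -0.72. Of 11 lineage transcription factors, none was higher in every mouse and St18, Zeb2 and Tcf7l2 were lower. Sox10, which defines the lineage, stood at -0.04. In the cluster 7 nuclei 1 of the 11 was higher and 0 were lower in every mouse. The median log2 ratio of the 11 was 0.07 there and -0.11 in all sub-cluster 2 nuclei.

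The share of oligodendrocyte nuclei in sub-cluster 2 did not pass the test for genotype or sex. It was 24.6, 24.0 and 36.7% in male WT mice of pools A, B and C, and 19.5, 33.9 and 22.2% in male SOD1G93A mice. In females it was 21.4, 31.6 and 24.4% in WT and 18.7, 26.3 and 20.5% in SOD1G93A. The groups overlapped. The Wilson interval of a single mouse was widest in female SOD1G93A C, with 9 of 44 nuclei (11.2 to 34.5%), and covers counting error only. By edgeR's quasi-likelihood test the log2 difference was -0.20 for SOD1G93A against WT (adjusted p = 0.627 over the 5 sub-clusters) and -0.17 for females against males (adjusted p = 0.771). For the cluster 7 nuclei the difference was -0.49 for genotype (adjusted p = 0.317) and -0.53 for sex (adjusted p = 0.487). Their share lay between 9.09 and 12.6% in female SOD1G93A mice and between 15.4 and 21.8% in female WT mice. In males the ranges overlapped, at 17.1 to 23.0% in SOD1G93A and 15.1 to 33.5% in WT, and the difference of the genotype effect between the sexes did not pass (log2 0.54, adjusted p = 0.744 by edgeR).

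**Figure D4:**
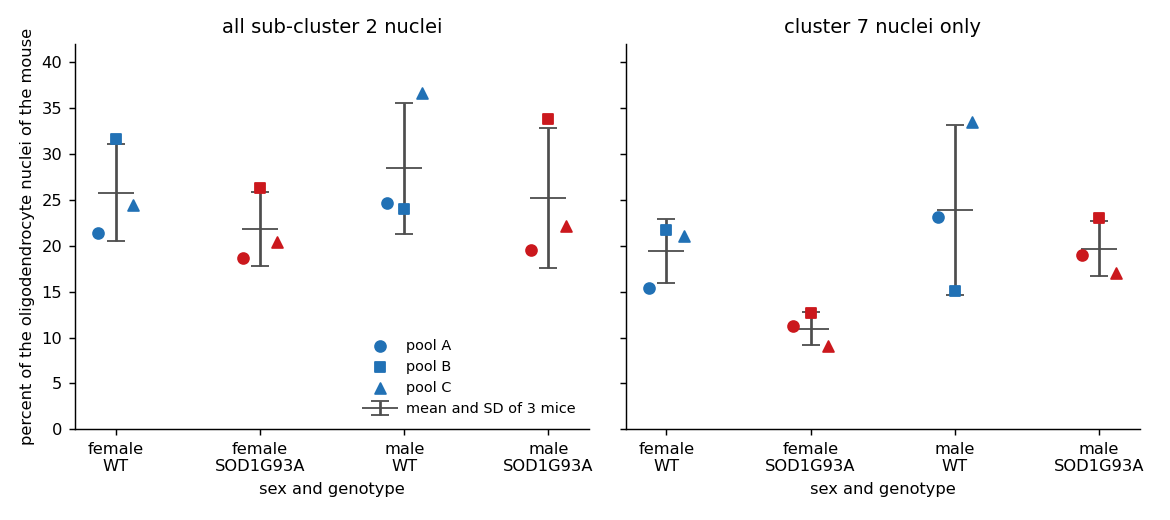
The y axis gives the percent of the oligodendrocyte nuclei of a mouse that lay in sub-cluster 2 (left) or in its cluster 7 nuclei (right), by sex and genotype on the x axis. Each point is a mouse, its shape the pool, and the bars are the mean and SD of 3 mice. Female SOD1G93A mice are at 9.09 to 12.6% on the right.

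To ask which genes differed by genotype, UMIs were summed per mouse and tested with limma, with the pool as a term. A single gene of 7134 passed (adjusted p under 0.1, 0.014% of those tested). Sod1 (chromosome 16, 90220754 to 90226329, mm10), which encodes superoxide dismutase and is the mouse counterpart of the transgene, was at 29.2, 51.1 and 127 CPM (lowest, median, highest) in WT mice and 108, 152 and 415 CPM in SOD1G93A mice. It was higher in SOD1G93A in 6 of 6 pairs of mice of the same sex and pool, with a log2 fold of 1.75 (SE 0.17, adjusted p = 0.000195 by limma), and the groups overlapped through male WT A. The pools differed: in pool A Sod1 was at 127 and 73.4 CPM in WT and 332 and 415 CPM in SOD1G93A, while in pools B and C it was at 29.2 to 51.8 CPM in WT and 108 to 168 CPM in SOD1G93A. Without the pool term the fold was 1.74 and the call was lost (adjusted p = 0.999 by limma). The fold was 1.77 (SE 0.21) in the cluster 7 nuclei. How far RNA of the human transgene was counted as mouse Sod1 was not tested. In sums over nuclei, fewer nuclei with a gene's RNA and less RNA per nucleus cannot be told apart.

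The 4 other genes taken from the study did not pass. Stat3, a transcription factor of cytokine signalling, was at 46.0, 66.9 and 84.2 CPM in WT and 53.3, 94.4 and 101 CPM in SOD1G93A, with a log2 fold of 0.46 (SE 0.19, adjusted p = 0.999 by limma). Aldh1l2, a mitochondrial folate enzyme, had a fold of 0.65 (SE 0.29), and Pros1, which encodes protein S, one of 1.42 (SE 0.51). C4b, of the complement cascade, had too few UMIs to be tested, 20 in WT and 38 in SOD1G93A mice. The median mouse was higher in SOD1G93A for each of the 4, and the ranges of the genotypes overlapped. Within pairs of the same sex and pool, Stat3 was higher in SOD1G93A in 6 of 6 and Aldh1l2 in 5 of 6, while Pros1 was at 23.8 CPM in WT and 23.5 CPM in SOD1G93A in the male pair of pool C and at 7.45 and 0 CPM in the female pair.

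Among the remaining genes with the same direction in all 3 pools, those of smallest p were Slc15a2, Flt1, Chgb, Kdm7a, A830018L16Rik, Ndufa4 and Clstn3 on the higher side, with log2 folds of 0.64 to 2.49. On the lower side they were Dusp15, Mthfd1l, Klf9, Inpp5d, Foxp2, Stard13, St8sia3os and Fancl, with folds of -0.65 to -1.39. In the cluster 7 nuclei the fold was -0.11 for Klf9, -0.66 for Stard13 and -0.85 for Dusp15. It was -0.97 for Mthfd1l, -1.33 for St8sia3os and Fancl and -1.60 for Foxp2 there, and Inpp5d was not tested. None passed the test (adjusted p = 0.999 by limma for each). Slc15a2, a peptide transporter, was at 16.5, 30.9 and 42.7 CPM in WT and 44.7, 63.4 and 76.6 CPM in SOD1G93A, without overlap. Foxp2, a transcription factor, was at 33.5, 43.2 and 79.6 CPM in WT and 2.13, 15.9 and 26.6 CPM in SOD1G93A, also without overlap. Both genes were picked for a small p. The share of all tested genes without overlap is not given here, so the separation is no sign of a change. Flt1 is an endothelial marker, at 12 UMIs in WT and 58 in SOD1G93A mice, and the summed level of the 4 other endothelial and mural markers was 3.06, 12.0 and 24.6 CPM in WT and 3.97, 6.68 and 29.8 CPM in SOD1G93A, with overlap and a lower median in SOD1G93A. Their part in the Flt1 value was not tested. St8sia3os is an antisense RNA, so its reads may belong to a gene on the other strand.

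**Figure D5:**
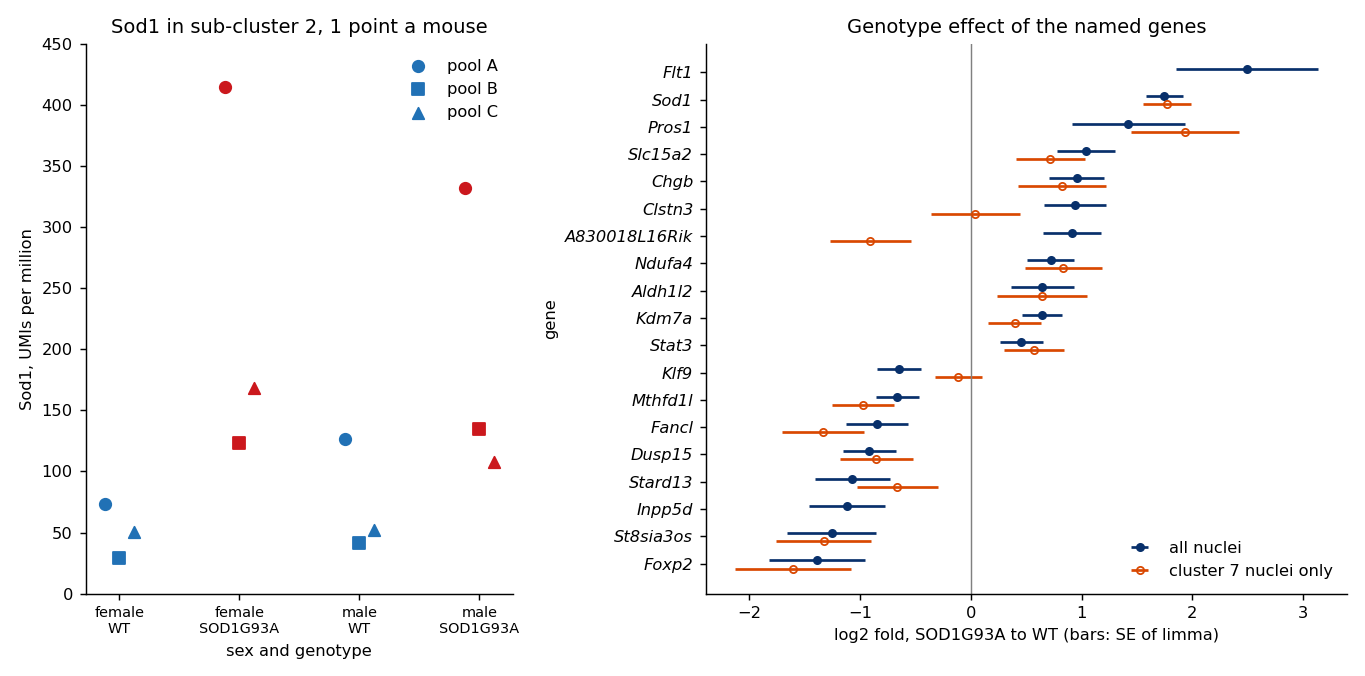
Left, Sod1 in CPM (y axis) in the sub-cluster 2 nuclei of each mouse by sex and genotype, with the pool as the shape. Right, the log2 fold of SOD1G93A to WT on the x axis, with the SE of limma as bars, for the 19 named genes on the y axis, in all nuclei and in the cluster 7 nuclei, where Flt1 and Inpp5d were not tested. Clstn3 moves from 0.94 to 0.04 and A830018L16Rik from 0.91 to -0.91.

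In all sub-cluster 2 nuclei no gene group held a call, by limma, edgeR or DESeq2. Sod1, the single gene called, was in none of the lists, although its product is an antioxidant enzyme. Precursor stage genes had a median log2 fold of -0.46, with 0 of 6 above 0 and 2 at an unadjusted p under 0.05. Mature stage genes had -0.27, with 2 of 11 above 0 and 1 at that p. Genes of iron handling and antioxidants had 0.26, with 12 of 14 above 0 and 3 at that p, and chaperones 0.17, with 9 of 11 above 0. Myelin proteins had -0.07 (5 of 12 above 0) and cholesterol synthesis -0.05 (6 of 15). All genes tested had a median of 0.01, with 3682 of 7134 above 0 and 282 at an unadjusted p under 0.05. For the cluster 7 nuclei alone the median turned to 0.13 for mature stage genes, 0.22 for myelin proteins and 0.13 for cholesterol synthesis, and was -0.80 for precursor genes, 0.44 for iron handling and antioxidants and 0.24 for chaperones, against -0.01 over all genes. Among markers of other cell types the median there was 0.94 for 4 astrocyte markers, -0.81 for 6 neuron markers and -0.80 for 3 OPC markers. The summed astrocyte markers were at 201, 221 and 369 CPM in WT and 207, 350.1 and 914 CPM in SOD1G93A in the cluster 7 nuclei. In all nuclei 3 astrocyte markers were tested, with a median log2 fold of 0.33. The water channel Aqp4 was at 1.02 (SE 0.33, adjusted p = 0.999 by limma), Slc1a2 at 0.33 (SE 0.33) and Slc1a3 at -0.01 (SE 0.21). The part of these cell types in the group medians was not tested.

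The count of calls depended on which nuclei were summed. In the cluster 7 nuclei alone, 60 of 6372 genes passed (0.942%), 10 higher (0.157%) and 50 lower (0.785%) in SOD1G93A. The 50 lower genes were led by Nrxn3, an adhesion molecule of synapses, with a log2 fold of -1.52 (SE 0.18, adjusted p = 3.92e-05 by limma), and included Lrrtm4, Fgf14, Snhg11, Nrg3, Meg3 and Cntnap2. Each of the 50 was more than 2 times as high in neurons as in the other oligodendrocytes, as were 996 of the 6372 genes tested. The summed level of the 6 neuron markers in the cluster 7 nuclei was 2533, 3321 and 4492 CPM in WT and 612, 2951 and 4156 CPM in SOD1G93A, with female SOD1G93A mice at 612, 1218 and 3655 CPM. Meg3 made 69.9% of the UMIs of that list, and Meg3 and Syt1 are themselves among the 50. The 4 other neuron markers, none of them called, summed to 364, 473 and 665 CPM in WT and 135, 428 and 914 CPM in SOD1G93A, with overlap. The part of neuron RNA in these 50 values was not tested. The 10 higher genes were Sod1, the metallothioneins Mt3 (1.47, SE 0.32) and Mt1 (1.02, SE 0.26), the ferritin chain Fth1 (0.78, SE 0.18), Pros1 (1.93, SE 0.49, adjusted p = 0.0716 by limma), the respiratory chain genes Ndufb3 and Atp5j, Ddrgk1, Gm11808 and Anp32a. By group, 3 of 10 iron handling and antioxidant genes were called higher (Fth1, Mt1 and Mt3), 1 of 3 complement genes higher (Pros1) and 1 of 13 paranode and axon contact genes lower (Nrg3), and no other gene group held a call. The median of 4 astrocyte markers was 0.94 in the same fit, and their part in the calls of Fth1, Mt1 and Mt3 was not tested. Female SOD1G93A C had only 4 cluster 7 nuclei, with 16415 UMIs. Without that mouse 9 genes passed (0.125% of 7212), each of them among the 60: Sod1 higher, and Meg3, Snhg11, Nrxn3, Cntnap2, Opcml, Ccser1, Cntnap5a and Slc35f1 lower. In that fit Mt3, Mt1, Fth1 and Pros1 were not called, at folds of 1.46, 1.05, 0.74 and 2.06. The genes of both fits were named after their values were seen.

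The genotype effect was next compared with that in the same mice's sub-clusters 0 and 1. Against sub-cluster 0, 1 of 6168 genes differed (0.0162%). Ebf1 was at 455, 717 and 1037 CPM in WT and 603, 864 and 1072 CPM in SOD1G93A in sub-cluster 2, and at 72.3, 119 and 340 CPM in WT and 28.7, 52.6 and 204 CPM in SOD1G93A in sub-cluster 0. As unweighted means over mice, here and in the next comparisons, the log2 fold was 0.35 in sub-cluster 2 and -1.08 in sub-cluster 0, so the signs were opposite and the larger change was in sub-cluster 0. In the weighted fit with each mouse as a block, the difference of the log2 folds was 1.28 (SE 0.22, adjusted p = 0.00582 by limma). In the cluster 7 nuclei Ebf1 was at 343, 510 and 843 CPM in WT and 15.9, 211 and 1095 CPM in SOD1G93A. The ranges overlapped, and the median there was lower in SOD1G93A, as in sub-cluster 0. Without male SOD1G93A A, or with the cluster 7 nuclei alone, 0 genes passed (313 and 171 at an unadjusted p under 0.05).

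Against sub-cluster 1, 1 of 6772 genes differed (0.0148%), and it was Sod1. Its log2 fold was 1.73 in sub-cluster 2 and 0.51 in sub-cluster 1, where it was at 50.8, 62.2 and 178 CPM in WT and 76.0, 100.5 and 186 CPM in SOD1G93A (difference 1.19, SE 0.22, adjusted p = 0.0661 by limma). The call was lost when any of 8 mice was left out, namely male WT B or C, male SOD1G93A A or B, any female WT, or female SOD1G93A C, and was kept in the cluster 7 nuclei. Against sub-cluster 0 the difference for Sod1 was 0.59 (SE 0.34, adjusted p = 0.923 by limma).

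For Stat3 the log2 fold was 0.44 in sub-cluster 2 and 1.12 in sub-cluster 0, a difference of -0.68 (SE 0.26, adjusted p = 0.715 by limma). For C4b the fold was 1.54 in sub-cluster 2 and 2.74 in sub-cluster 1, a difference of -1.16 (SE 0.63, adjusted p = 0.999 by limma). In SOD1G93A mice C4b was at 0, 16.2 and 25.6 CPM in sub-cluster 2, 21.7, 37.6 and 69.8 CPM in sub-cluster 0, and 20.7, 27.6 and 42.3 CPM in sub-cluster 1. A smaller genotype effect of Stat3 or C4b in sub-cluster 2 was therefore not shown at this depth.

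For sex, 7 of the 7134 genes passed (0.0981%), 2 higher (0.028%) and 5 lower (0.0701%) in females. Xist, the RNA that silences an X chromosome, was at 526 to 1099.7 CPM in females and 14.9 to 80.7 CPM in males, and its antisense partner Tsix was also higher in females. The Y-linked genes Uty, Eif2s3y, Ddx3y and Kdm5d were higher in males, with Uty at 234 to 279 CPM in males and 5.59 to 18.4 CPM in females, so every mouse matched its labelled sex. Lmo3 (chromosome 6), a LIM-domain transcription cofactor, was the only call outside the sex chromosomes. It was at 31.2, 58.8, 67.0, 61.8, 55.5 and 56.4 CPM in the males and 15.3, 9.42, 3.72, 0, 17.1 and 0 CPM in the females, without overlap (log2 difference of females to males -2.68, SE 0.41, adjusted p = 0.00868 by limma). Lmo3 was not among the calls without female SOD1G93A A, without the nuclei above the 95th percentile of UMIs or at a minimum count of 30. It was also absent when nuclei with a UMI of Grin1, Rbfox3 or Camk2a were left out. The same held for the cluster 7 nuclei without female SOD1G93A C. The part of neuron RNA in the Lmo3 value was not tested. The genotype effect differed between the sexes for 0 genes by limma, edgeR or DESeq2, with 128, 138 and 73 at an unadjusted p under 0.05. For the cluster 7 nuclei alone, 41 genes passed for sex (0.643%) and 57 for the difference between the sexes (0.895%), and without female SOD1G93A C, which had 4 such nuclei, 10 (0.139%) and 5 (0.0693%). With that mouse kept in, Lrrtm4, Nrg3, Snhg11 and Cntnap2 were called in both. Each is also among the genes called lower by genotype in the cluster 7 nuclei, all of them higher in neurons. The part of neuron RNA in these calls was not tested.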

How the data were processed

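Nuclei of lumbar spinal cord were run on the 10x platform in 3 pools (A, B, C), each of 4 hashtagged mice. Per the submitters' processing notes the authors used bcl2fastq 2.20.0.422, Cell Ranger 3.1 with STAR 2.5.1b, the build mm10, Seurat 4.0.3 and R 4.0.3, and the deposited table of UMIs holds raw counts per gene and nucleus. The authors removed nuclei under 200 genes or over 10 percent mitochondrial UMIs, a deposited percent, and those with no hashtag or several. Their mapping scores to a reference are deposited too. The deposited table of integrated sctransform values was set aside because it holds no raw counts. Clusters, sub-clusters and types are those of the authors. Coordinates are from GENCODE M21.

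UMIs of the 576 sub-cluster 2 nuclei were summed per mouse, from 108439 in female SOD1G93A A to 1062122 in female WT B. Sums were tested with limma 3.58.1 (voom, TMMwsp factors, robust moderation) on the 4 groups of sex by genotype with pool as a term, after edgeR's filter at a minimum count of 10, with Benjamini-Hochberg adjustment over all genes and a threshold of 0.1. Shares used edgeR 4.0.16 at 0.05. The tests were tried on simulated counts first. DESeq2 1.42.0, edgeR, other filters and scalings, and leaving out mice or nuclei were alternatives. Mice of a pool share a run, so the pool is a block. Residuals of the 18 same-pool pairs had a median correlation of 0.0494, against -0.0114 in the 36 other pairs. Levels are CPM on unscaled totals. Female SOD1G93A A and C stood apart on the first 2 principal components, and C had 9 nuclei.

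Genes named were those past the threshold, 5 genes of the study (Sod1, C4b, Aldh1l2, Pros1, Stat3), the 8 on each side of smallest p with 1 direction in all pools (Sod1 being 1 of them), and the 15 on each side with the largest level ratios. The sub-cluster, lists and tests were chosen with earlier results of these data known.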

Additional observations from a re-analysis of the deposited data

Results flagged for a closer look

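In 6 of 50 groups of 6 mice examined, 1 mouse stood apart from the other 5 by the Dixon ratio, which chance gives in about 1 group in 20. Aldh1l2 was highest of the WT mice in male WT B, at 32.0 CPM, and Pros1 in male WT C, at 23.8 CPM. Stat3 was lowest of the SOD1G93A mice in male SOD1G93A A, at 53.3 CPM. A830018L16Rik reached 336 CPM in female SOD1G93A B, where 76.1% of the UMIs came from nuclei outside cluster 7. Mthfd1l was highest of the SOD1G93A mice in female SOD1G93A A, at 101 CPM, and Klf9 highest of the WT mice in female WT A, at 159 CPM.

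The signed genotype effect of Ebf1 differed by 1.28 on the log2 scale between sub-cluster 2 (0.35) and sub-cluster 0 (-1.08), where the size of the effect was larger, and that of Sod1 was larger in sub-cluster 2 than in sub-cluster 1 by 1.19, both by the limma test of the difference itself. In the cluster 7 nuclei the median level of Ebf1 was 510 CPM in WT and 211 CPM in SOD1G93A, lower as in sub-cluster 0. Neither difference was called under every alternative, and the part of neuron RNA in the Ebf1 value was not tested.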

How the results depend on the processing

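The genotype count of 1 gene became 8 with no filter beyond 1 UMI, 0 with no replicate block (the pool term left out), 60 with the cluster 7 nuclei alone and 9 with those and mice under 10 of them left out, and it lay between 1 and 4 when each mouse was left out, with 4 without female WT A. The sex count of 7 became 11 with no filter, 4 at a minimum count of 30 and 41 with cluster 7 alone, and 6 to 8 with a mouse left out. The sex by genotype count of 0 became 57 with cluster 7 alone and 5 with mice under 10 nuclei also left out, and stayed at 0 with any mouse left out. Against sub-cluster 0 the count of 1 became 3 with edgeR, 0 with no mouse block, 0 in both cluster 7 settings and 0 to 16 with a mouse left out (13 without female WT A, 16 without female SOD1G93A A). Against sub-cluster 1 it became 2 with edgeR, 2 in both cluster 7 settings and 0 to 2 with a mouse left out. The 488 higher and 571 lower level genes became 511 together with nuclei thinned to 1500 UMIs, 646 with cluster 7 alone and 1072 to 1251 with a mouse left out. The causes were not tested. The cluster 7 settings were chosen after seeing the data.

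For A830018L16Rik the genotype fold of 0.91 turned to -0.29 without nuclei above the 95th percentile of UMIs, -0.91 with cluster 7 alone and -0.90 with mice under 10 nuclei also left out, and for Clstn3 0.94 turned to -0.43 in the last setting. Of 419 values of named genotype genes, 413 kept direction and side of the threshold. Of 450 level ratios, 438 moved by less than 1 SD and 0 changed sign. The share differences kept their side, at -0.34 to -0.08 for genotype and -0.31 to -0.04 for sex with a mouse left out. Leaving out the pool block changed no call but those given and Tsix by sex. With 9 nuclei in 1 mouse and 0 to 12 UMIs of C4b per mouse, depth limits genes of low level.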
